A study of Homo sapiens with 12 samples.

Results

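Cholesterol synthesis, sterol sensing and sterol transport were followed through 28 genes in C4-2 cells, which descend from the LNCaP prostate cancer line and grow without testicular androgen. The genes were taken by symbol from the deposited count table, which lists 56269 gene symbols, and all 28 were found. All 28 also passed the filter on low counts, which left 16115 genes for testing. Every culture received a small interfering RNA (siRNA) for 48 h, was kept without serum for 12 h, and was then treated for 24 h. The 4 groups, of 3 libraries each, were paxillin siRNA with 2.5 nM dihydrotestosterone (DHT, an androgen), paxillin siRNA with ethanol vehicle, nonspecific siRNA with 2.5 nM DHT, and nonspecific siRNA with vehicle. The design asked how the androgen acts on gene expression and whether the focal adhesion adaptor paxillin, encoded by PXN, alters that action. The cells are a single established line, no untransfected cells were analysed here, and all 4 groups shared the transfection and the serum withdrawal. The labels do not state that the replicates of a group came from different cultures, so a p-value here reflects only how much these libraries varied, which may be technical variation.

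Cells build cholesterol from acetyl-CoA. The mevalonate arm makes isoprenoid units, which are joined into squalene, closed into lanosterol and then trimmed and reduced to cholesterol. The supply is controlled by a sensor in the endoplasmic reticulum. When sterols are scarce, SCAP escorts the membrane-bound transcription factor SREBF2 to the Golgi, where it is cut and released to switch on synthesis and uptake genes, while INSIG1 and INSIG2 hold the complex back when sterols are plentiful. Androgens are known to raise lipid and sterol synthesis genes in prostate cancer cells, and cholesterol is the precursor of steroid hormones.

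The promoters of SREBF target genes typically carry a sterol regulatory element beside boxes for NF-Y and Sp1, so the bases before the start were examined in genes with the largest rises and falls under DHT and in the sensors INSIG1 and SREBF2. The 150 bases ending just before the RefSeq start are given below for HMGCS1, LSS and IDI1 (the 3 largest rises under nonspecific siRNA), for INSIG2, HSD17B7 and TM7SF2 (the 3 falls) and for both sensors, from GRCh38.p14 and 5′ to 3′ on the gene's own strand. Where RefSeq lists several starts, the start nearest the GENCODE 29 gene start is used. Capitals mark the sterol regulatory element core TCACNCCAC and the NF-Y box ATTGG on either strand, so that the reverse letters CCAAT are in capitals too. The windows are chr5:43313413-43313562 on the minus strand for HMGCS1, chr21:46228775-46228924 on the minus strand for LSS, chr10:1049120-1049269 on the minus strand for IDI1, chr2:118088321-118088470 on the plus strand for INSIG2, chr1:162790552-162790701 on the plus strand for HSD17B7, chr11:65111722-65111871 on the plus strand for TM7SF2, chr7:155297728-155297877 on the plus strand for INSIG1 and chr22:41832955-41833104 on the plus strand for SREBF2.
HMGCS1: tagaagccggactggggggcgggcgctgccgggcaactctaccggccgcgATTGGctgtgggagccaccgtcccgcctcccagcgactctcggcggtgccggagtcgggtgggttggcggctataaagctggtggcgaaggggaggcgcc
LSS: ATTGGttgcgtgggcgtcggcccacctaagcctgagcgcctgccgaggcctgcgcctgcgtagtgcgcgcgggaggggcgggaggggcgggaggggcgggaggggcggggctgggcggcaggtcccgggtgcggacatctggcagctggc
IDI1: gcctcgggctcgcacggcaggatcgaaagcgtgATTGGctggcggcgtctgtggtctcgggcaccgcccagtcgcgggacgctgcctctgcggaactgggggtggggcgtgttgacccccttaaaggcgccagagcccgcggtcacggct
INSIG2: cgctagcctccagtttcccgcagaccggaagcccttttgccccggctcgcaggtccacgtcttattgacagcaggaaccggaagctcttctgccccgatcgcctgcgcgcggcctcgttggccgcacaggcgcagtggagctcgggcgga
HSD17B7: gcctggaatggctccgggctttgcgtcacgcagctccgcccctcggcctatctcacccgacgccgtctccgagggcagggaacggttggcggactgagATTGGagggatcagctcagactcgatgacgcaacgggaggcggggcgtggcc
TM7SF2: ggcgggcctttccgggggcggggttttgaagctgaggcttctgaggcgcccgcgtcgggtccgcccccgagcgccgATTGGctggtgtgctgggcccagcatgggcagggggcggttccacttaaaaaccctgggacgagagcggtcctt
INSIG1: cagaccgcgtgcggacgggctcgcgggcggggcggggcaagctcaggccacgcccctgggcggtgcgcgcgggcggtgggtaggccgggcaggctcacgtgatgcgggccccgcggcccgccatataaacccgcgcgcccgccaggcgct
SREBF2: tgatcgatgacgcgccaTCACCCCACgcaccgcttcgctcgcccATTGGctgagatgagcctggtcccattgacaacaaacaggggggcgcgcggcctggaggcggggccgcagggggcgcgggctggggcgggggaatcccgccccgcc

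Of these windows, only that of SREBF2 holds the sterol core, with an NF-Y box after it. HMGCS1, LSS, IDI1, HSD17B7 and TM7SF2 each show 1 NF-Y box, and the bases printed for INSIG1 and INSIG2 show none. The box is thus present both among genes that rose and among genes that fell. RefSeq gave 32 windows for 25 of the 28 genes, each running from 250 bases before a start to 50 after it. In these windows the letters ATTGG, on either strand, were found in 21 of 32 (65.6%), against 34.5% of the 15236 windows of tested genes and 34.6% of all 35116 windows of the same length. The Sp1 box GGGCGG was found in 29 of 32 (90.6%), against 65% of windows of tested genes and 45% of all windows. The sterol core was found in 1 of 32 (3.12%), against 1.08% and 1.13%, and AGAACA, the repeat unit of an androgen response element, in 1 of 32, that of PMVK, against 9.87% and 14.8%. Counted per gene, the Sp1 box was found in 23 of 25 (92%), against 76.1% of 10461 tested genes, a smaller gap than per window. ATTGG was found in 19 of 25 genes (76%), against 43.1%. INSIG1 is among these 19 genes, with ATTGG at position -170 from the start, which lies before its printed bases. INSIG2 is not among them. The sterol core and AGAACA were each found in 1 of 25 (4%), against 1.48% and 12.8%. In these 32 windows no match of a motif shared a base with a match of another motif, although ATTGG and GGGCGG can overlap. These shares describe letters in short windows, were not tested, and are not evidence of binding.

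Library totals ran from 26251814 to 32040465 counts for paxillin siRNA with DHT, 25701219 to 29037657 for paxillin siRNA with vehicle, 24207745 to 28298195 for nonspecific siRNA with DHT, and 11944906 to 25303242 for nonspecific siRNA with vehicle, whose replicate 1 is the shallowest. Levels are given in CPM, the count scaled to library size, with library totals adjusted by edgeR's TMM factors. PXN averaged 11.6 ± 2.43 CPM with paxillin siRNA and 127 ± 8.55 CPM with nonspecific siRNA under DHT, and 13.8 ± 2.51 CPM and 146 ± 6.65 CPM under vehicle (mean ± SD, n = 3 each), and every paxillin siRNA library was below every nonspecific siRNA library. FKBP5, an androgen-induced co-chaperone, averaged 1022 ± 120 CPM with DHT and 47.7 ± 1.75 CPM with vehicle under paxillin siRNA. The 8 luminal prostate markers summed to 7024 to 15225 CPM per library. KRT5 and TP63 of the basal list, PTPRC, CD68 and CD3E of the immune list, COL1A2 and DCN of the fibroblast list, and PECAM1 and CDH5 of the endothelial list were at 0 or close to it in every group. KRT14 of the basal list averaged 0.25 CPM with DHT and 0 CPM with vehicle under paxillin siRNA. Under nonspecific siRNA KRT14 averaged 0.53 CPM with DHT and 0.01 CPM with vehicle. COL1A1 averaged 26.3 to 41.2 CPM and VWF 9.94 to 12.6 CPM.

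The 28 genes were unequally abundant. Per kilobase of annotated exon, and averaged over the 12 libraries, the highest was FDFT1, squalene synthase, at 276 CPM per kb, followed by INSIG1 at 229, FDPS at 155, DHCR7 at 140, TM7SF2 at 114 and SREBF2 at 110 CPM per kb. The lowest were MYLIP at 6.20, STARD4 at 5.93 and CYP51A1 at 5.39 CPM per kb. INSIG1 was thus the more abundant of the INSIG pair, since INSIG2 stood at 7.67 CPM per kb. The level of CYP51A1 is uncertain, because GENCODE 29 places a same-strand gene, AC000120.2, over 79.4% of its exon bases, and reads shared by overlapping genes can be lost in counting. The deposited counts have no row under the symbol AC000120.2, so whether that gene took part in the counting is not known. Together the 28 genes took 8509 ± 550 CPM with DHT and 5841 ± 583 CPM with vehicle under paxillin siRNA, and 8337 ± 362 CPM with DHT and 5469 ± 282 CPM with vehicle under nonspecific siRNA.

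**Figure D1:**
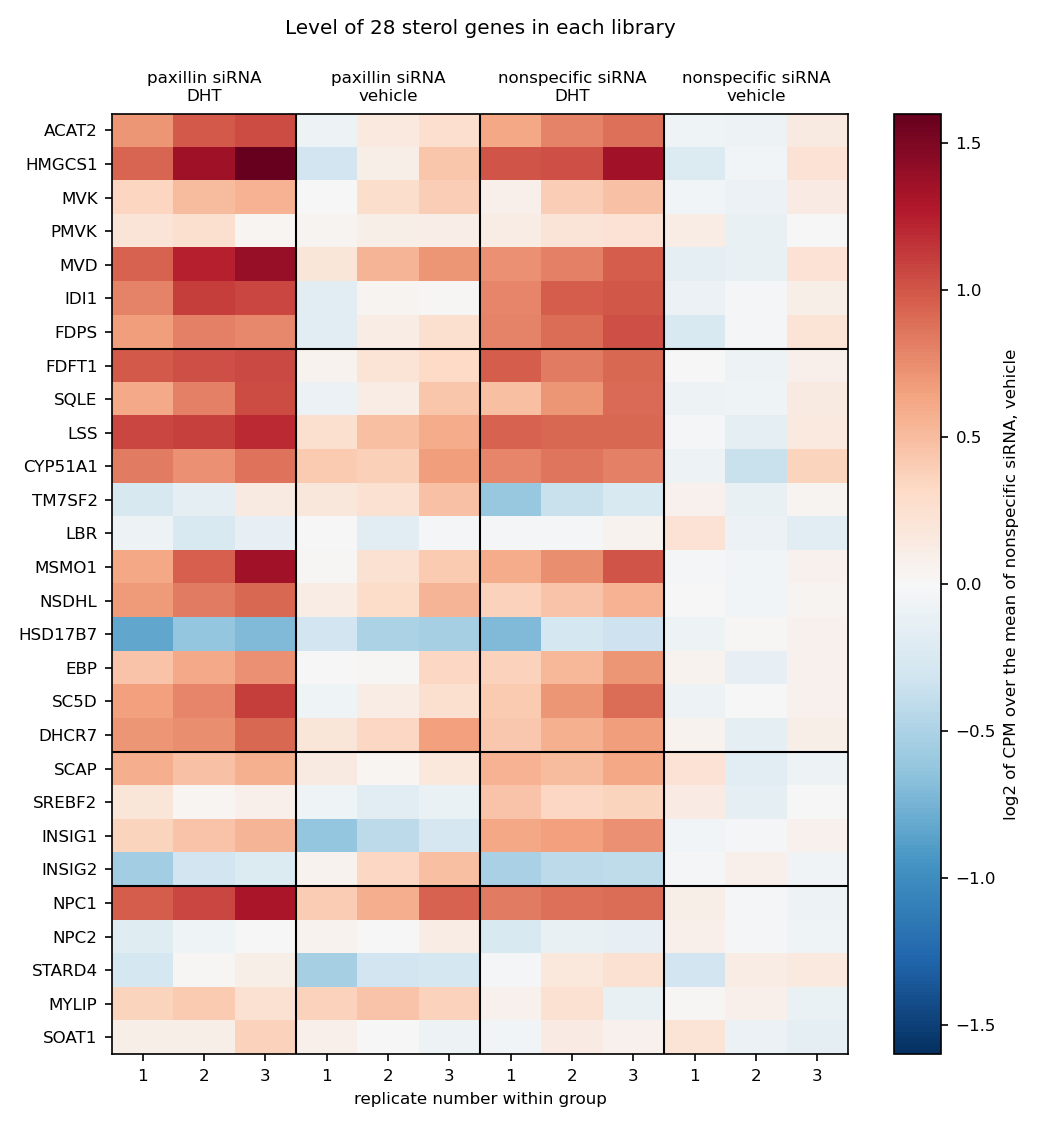
Level of each of the 28 genes (rows, in pathway order, with lines between the mevalonate arm, the squalene and sterol arm, the sensors, and the transport and esterification genes) in each library (columns, by group and replicate number), as log2 of CPM over the mean of the nonspecific siRNA, vehicle group. Red blocks mark the DHT groups for most synthesis genes, whereas TM7SF2, HSD17B7 and INSIG2 are blue there under nonspecific siRNA.

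DHT raised most of the synthesis pathway under either siRNA. Under paxillin siRNA 18 of 28 genes rose and 3 fell, and under nonspecific siRNA 20 rose and 3 fell. Over all 16115 genes tested, 20.1% rose and 17.9% fell under paxillin siRNA, and 21.6% rose and 18.9% fell under nonspecific siRNA (edgeR quasi-likelihood test, Benjamini-Hochberg adjusted p under 0.05 over all genes, as in every call below). With upper-quartile scaling the balance over all genes turned, with 2262 up and 3935 down under paxillin siRNA and 2707 up and 3896 down under nonspecific siRNA, while of the 28 genes 16 rose and 4 fell, and 18 rose and 4 fell. In bulk RNA, more RNA per cell and more cells with the RNA cannot be told apart. The median log2 fold change of the 28 genes was 0.44 under paxillin siRNA and 0.56 under nonspecific siRNA, against -0.01 over all tested genes in both. Of the 28 genes, 17 rose and 3 fell under both siRNAs, and none was called in opposite directions. Such agreement was not counted over all tested genes, so it cannot be read as particular to these genes. In each DHT comparison, all 3 DHT libraries stood above all 3 vehicle libraries in 19 genes and below them in 4. Over all tested genes, such separation was seen upward in 25.3% and downward in 23.3% under paxillin siRNA, and in 26.3% and 24% under nonspecific siRNA.

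In the mevalonate arm DHT acted most on HMGCS1, the cytosolic HMG-CoA synthase (chromosome 5, 43289395 to 43313512, GRCh38). It stood at 377, 505 and 596 CPM with DHT, against 160, 210 and 269 CPM with vehicle under paxillin siRNA. With nonspecific siRNA it stood at 395, 403 and 501 CPM with DHT, against 169, 191 and 231 CPM with vehicle. The DHT libraries were higher than every vehicle library in both settings, and the log2 fold changes were 1.21 ± 0.17 and 1.13 ± 0.17 (SE; edgeR adjusted p = 1.89e-05 and 3.8e-05) under paxillin and nonspecific siRNA. IDI1, which isomerises isopentenyl diphosphate (chromosome 10, 1039152 to 1049170), had 153, 190 and 185 CPM with DHT, against 77.8, 91.1 and 89.8 CPM with vehicle under paxillin siRNA. Under nonspecific siRNA IDI1 had 151, 172 and 175 CPM with DHT, against 82.9, 87.5 and 94.4 CPM with vehicle. It rose 2.04-fold and 1.88-fold under paxillin and nonspecific siRNA, with no overlap between treatments.

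ACAT2, the thiolase that starts the arm, rose 1.74-fold under paxillin siRNA and 1.70-fold under nonspecific siRNA. MVD, mevalonate diphosphate decarboxylase, rose 1.64-fold and 1.78-fold, and FDPS, which makes farnesyl diphosphate, rose 1.59-fold and 1.87-fold, in the same order. The kinases between them moved less. MVK, mevalonate kinase, averaged 72.5 ± 5.49 CPM with DHT and 61.7 ± 8.43 CPM with vehicle under paxillin siRNA (log2 fold change 0.23 ± 0.10, SE; edgeR adjusted p = 0.0861). Under nonspecific siRNA MVK averaged 65.3 ± 8.88 CPM with DHT and 52.4 ± 4.38 CPM with vehicle, and it rose with a log2 fold change of 0.32 ± 0.11 (edgeR adjusted p = 0.0228) although the groups overlapped. PMVK, the next kinase, rose 1.14-fold under nonspecific siRNA (edgeR adjusted p = 0.0386) and had a log2 fold change of 0.08 ± 0.07 under paxillin siRNA (edgeR adjusted p = 0.376). The kinase calls under nonspecific siRNA were the least stable of the 23 made there, being lost in 5 of 18 alternative settings for MVK and in 6 for PMVK. Both were lost with upper-quartile scaling (edgeR adjusted p = 0.0719 and 0.175), without nonspecific siRNA vehicle replicate 2 (0.0974 and 0.174) and without nonspecific siRNA DHT replicate 2 (0.0771 and 0.0968) or 3 (0.109 and 0.111). MVK was also lost without nonspecific siRNA vehicle replicate 1 (0.0601) and PMVK without replicate 3 of that group (0.0816) and with the compared groups alone (0.058). With the replicate number as a block MVK also rose under paxillin siRNA (edgeR adjusted p = 0.00317). ACAT2 shares 33.9%, 26.5% and 9.23% of its exon bases with SOD2-OT1, SOD2 and TCP1 on the opposite strand, and the strand setting of the counting was not stated, so its counts are uncertain. HMGCS1, MVK, IDI1 and FDPS share 15%, 4.72%, 14.8% and 18.6% of their exon bases with opposite-strand genes and carry the same limit. SOD2-OT1 and the gene overlapping HMGCS1 have no row under their symbols in the deposited counts.

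In the squalene and sterol arm, the early enzymes rose together. FDFT1 had 1870, 1945 and 1969 CPM with DHT, against 982, 1099 and 1183 CPM with vehicle under paxillin siRNA. With nonspecific siRNA FDFT1 had 1850, 1691 and 1789 CPM with DHT, against 945, 898 and 1002 CPM with vehicle. Every DHT library was above every vehicle library, with rises of 1.77-fold under paxillin siRNA and 1.87-fold under nonspecific siRNA (edgeR adjusted p = 1.07e-07 and 3.26e-08). SQLE, squalene epoxidase, rose 1.57-fold and 1.63-fold, and LSS, lanosterol synthase, rose 1.59-fold and 1.90-fold under paxillin and nonspecific siRNA.

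CYP51A1, the lanosterol demethylase, behaved less evenly. It had 23.2, 21.7 and 23.8 CPM with DHT, against 17.4, 17.0 and 20.7 CPM with vehicle under paxillin siRNA. With nonspecific siRNA the values were 22.5, 23.6 and 22.8 CPM with DHT, against 12.3, 10.2 and 16.6 CPM with vehicle. The DHT libraries of both siRNAs overlapped, and the vehicle libraries with nonspecific siRNA were the lowest. CYP51A1 rose 1.75-fold under nonspecific siRNA (edgeR adjusted p = 8.84e-05), and its log2 fold change under paxillin siRNA, 0.32 ± 0.12 (SE), did not pass (edgeR adjusted p = 0.0512, and 0.00891 with the replicate block). Counts of its copies CYP51A1P2 and CYP51A1P1 reached 7.2% and 1.81% of its own in a library. With the exon overlap given above, its fold changes in every comparison are uncertain.

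Later steps rose as well, except for HSD17B7 and the reductases described after it. MSMO1, the methylsterol oxidase, rose 1.70-fold under paxillin siRNA and 1.73-fold under nonspecific siRNA, SC5D, a sterol desaturase, 1.68-fold and 1.61-fold, EBP, a sterol isomerase, 1.39-fold and 1.46-fold, NSDHL, a sterol dehydrogenase of the demethylation complex, 1.39-fold and 1.37-fold, and DHCR7, a final reductase, 1.31-fold and 1.47-fold. HSD17B7, a ketosterol reductase of the same demethylation complex as MSMO1 and NSDHL (chromosome 1, 162790702 to 162812817), went the other way. It had 45.1, 52.3 and 49.4 CPM with DHT, against 64.8, 56.6 and 55.7 CPM with vehicle under paxillin siRNA. With nonspecific siRNA HSD17B7 had 49.1, 66.1 and 64.0 CPM with DHT, against 75.8, 81.2 and 84.2 CPM with vehicle. No DHT library reached its vehicle libraries, and the log2 fold changes were -0.27 ± 0.10 and -0.43 ± 0.10 (SE; edgeR adjusted p = 0.031 and 0.00141) under paxillin and nonspecific siRNA. The first of these was lost without paxillin siRNA vehicle replicate 1 (edgeR adjusted p = 0.125) or paxillin siRNA DHT replicate 1 (0.129). HSD17B7 has a copy, HSD17B7P2, whose counts reached 8.38% of its own in a library, so its counts are uncertain.

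The sterol reductases TM7SF2 and LBR, which can act on the same step, did not follow the arm. TM7SF2 had 331, 360 and 436 CPM with DHT, against 448, 467 and 548 CPM with vehicle under paxillin siRNA. Nonspecific siRNA gave 260, 309 and 334 CPM with DHT, against 415, 364 and 409 CPM with vehicle. It fell in both, with log2 fold changes of -0.38 ± 0.11 and -0.40 ± 0.11 (SE; edgeR adjusted p = 0.00856 and 0.00602), and the call under paxillin siRNA was lost without paxillin siRNA DHT replicate 1 (edgeR adjusted p = 0.0512). LBR, which is also a nuclear envelope protein, had log2 fold changes of -0.09 ± 0.09 and 0.01 ± 0.09 under paxillin and nonspecific siRNA (edgeR adjusted p = 0.461 and 0.944).

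**Figure D2:**
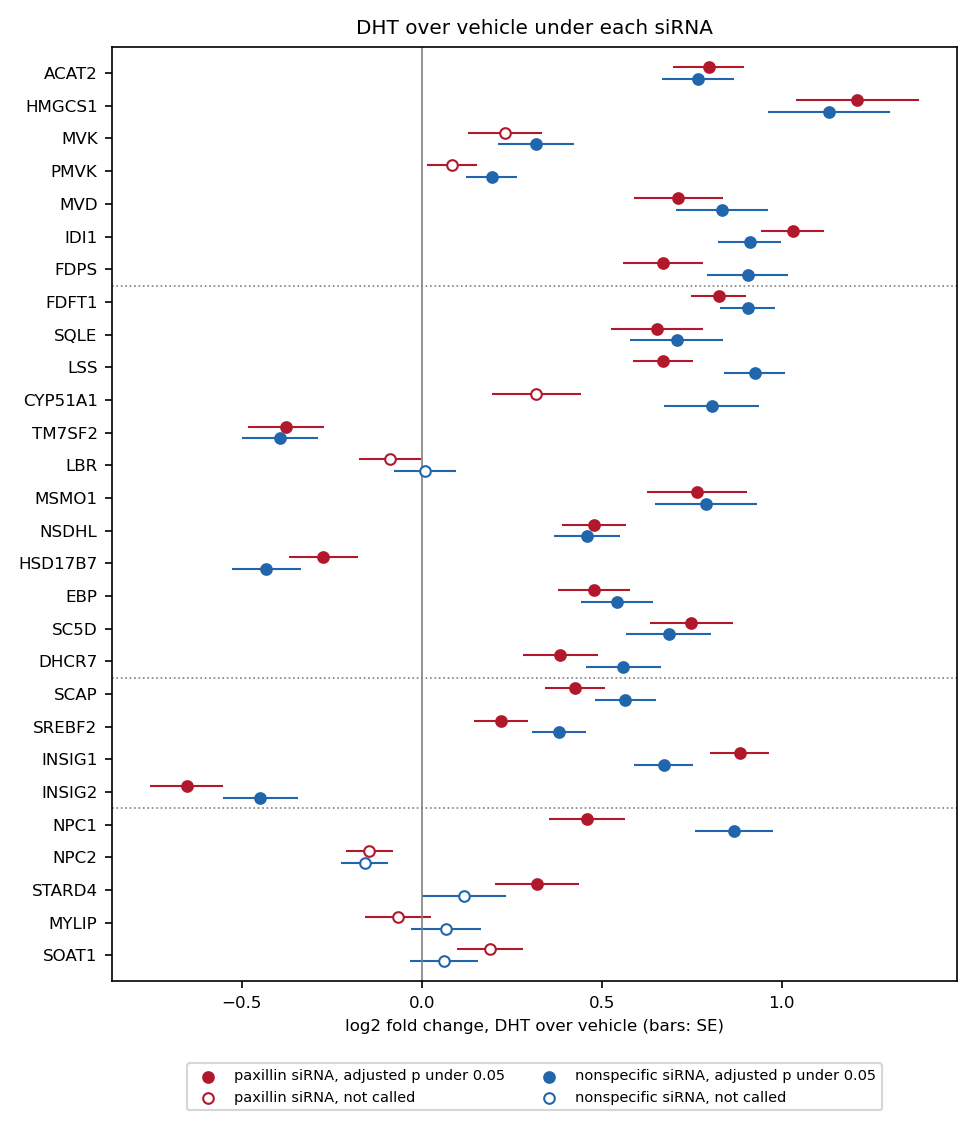
Log2 fold change of DHT over vehicle for each of the 28 genes under paxillin siRNA (red) and nonspecific siRNA (blue), with bars of 1 SE and filled points where the edgeR adjusted p was under 0.05. HMGCS1 lies farthest right at 1.21 and 1.13, and INSIG2 farthest left at -0.65 and -0.45.

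Among the sensors, DHT moved INSIG1 and INSIG2 in opposite directions. INSIG1 (chromosome 7, 155297776 to 155310235) had 912, 972 and 1030 CPM with DHT, against 461, 530 and 588 CPM with vehicle under paxillin siRNA. Under nonspecific siRNA it had 1094, 1120 and 1178 CPM with DHT, against 687, 698 and 744 CPM with vehicle. The groups were far apart in both, and INSIG1 rose 1.84-fold under paxillin siRNA and 1.59-fold under nonspecific siRNA (edgeR adjusted p = 1.11e-07 and 3.19e-06). INSIG2 (chromosome 2, 118088452 to 118110997) had 22.0, 26.1 and 27.8 CPM with DHT, against 33.6, 40.6 and 45.1 CPM with vehicle under paxillin siRNA. Under nonspecific siRNA it had 22.6, 24.3 and 24.3 CPM with DHT, against 31.9, 34.1 and 31.0 CPM with vehicle. It fell by 0.65 ± 0.10 and 0.45 ± 0.10 on the log2 scale (SE; edgeR adjusted p = 5.25e-05 and 0.00216) under paxillin and nonspecific siRNA, again with no overlap.

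SCAP, the escort protein, rose 1.34-fold under paxillin siRNA and 1.48-fold under nonspecific siRNA. SREBF2 itself rose less. It had 884, 789 and 819 CPM with DHT, against 738, 687 and 715 CPM with vehicle under paxillin siRNA, and 1063, 972 and 985 CPM with DHT, against 848, 702 and 767 CPM with vehicle under nonspecific siRNA. The DHT libraries were higher in both, by 1.17-fold (edgeR adjusted p = 0.0269) and 1.30-fold (edgeR adjusted p = 0.00052). The call under paxillin siRNA was lost in 4 of 18 alternative settings, among them upper-quartile scaling (edgeR adjusted p = 0.149), and without paxillin siRNA vehicle replicate 2 or 3 or paxillin siRNA DHT replicate 1 (0.123, 0.0654 and 0.118).

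**Figure D3:**
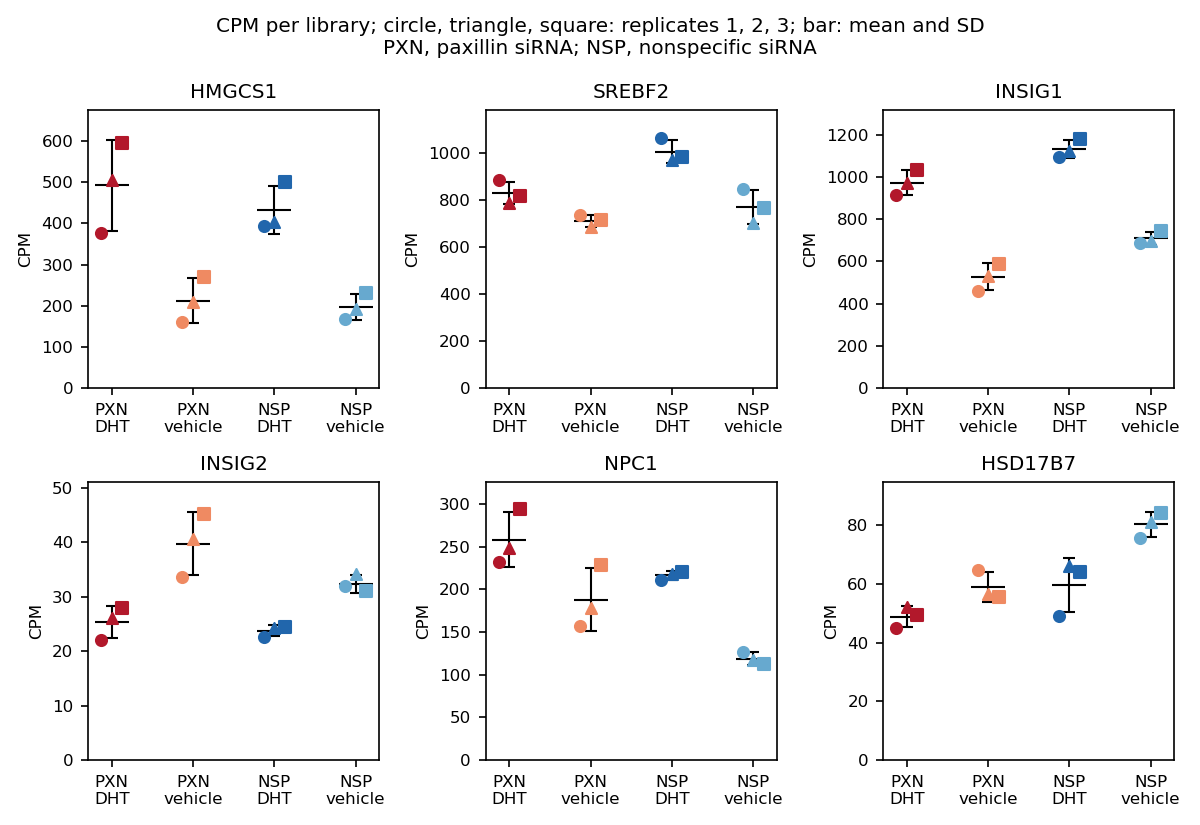
CPM in each library for HMGCS1, SREBF2, INSIG1, INSIG2, NPC1 and HSD17B7, by group (PXN, paxillin siRNA; NSP, nonspecific siRNA), with replicates 1, 2 and 3 as circle, triangle and square and black bars for mean and SD. INSIG1 is higher and INSIG2 lower with DHT in every library under both siRNAs.

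Of the 5 transport, uptake control and esterification genes, 2 rose with DHT under paxillin siRNA and 1 under nonspecific siRNA. NPC1, which moves cholesterol out of lysosomes (chromosome 18, 23506184 to 23586898), rose in both. It had 232, 248 and 294 CPM with DHT, against 157, 178 and 228 CPM with vehicle under paxillin siRNA. Under nonspecific siRNA it had 210, 218 and 220 CPM with DHT, against 127, 117 and 112 CPM with vehicle. It rose 1.37-fold under paxillin siRNA and 1.82-fold under nonspecific siRNA (edgeR adjusted p = 0.00238 and 4.89e-06), with every DHT library above its vehicle libraries. An opposite-strand gene, RMC1, which has no row under that symbol in the deposited counts, covers 5.98% of the exon bases of NPC1. Its lysosomal partner NPC2 had log2 fold changes of -0.15 ± 0.06 and -0.16 ± 0.07 (SE; edgeR adjusted p = 0.0856 and 0.0619), with every DHT library below its vehicle libraries. With the replicate block NPC2 fell under nonspecific siRNA (edgeR adjusted p = 0.0386), and with upper-quartile scaling it fell under both siRNAs (0.00914 and 0.00963).

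STARD4, a cytosolic sterol carrier, rose under paxillin siRNA with a log2 fold change of 0.32 ± 0.12 (SE; edgeR adjusted p = 0.0379) and had a log2 fold change of 0.12 ± 0.12 under nonspecific siRNA (edgeR adjusted p = 0.454). Its groups overlapped in both, and the first call was lost without paxillin siRNA vehicle replicate 1 or 2, or paxillin siRNA DHT replicate 2 or 3 (edgeR adjusted p = 0.161, 0.0659, 0.114 and 0.164), and with upper-quartile scaling (0.131). MYLIP, a ubiquitin ligase that marks lipoprotein receptors for degradation, had log2 fold changes of -0.07 ± 0.09 and 0.07 ± 0.10, and SOAT1, which esterifies cholesterol for storage, of 0.19 ± 0.09 and 0.06 ± 0.09 under paxillin and nonspecific siRNA (SE; edgeR adjusted p from 0.117 to 0.635).

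Paxillin siRNA without hormone raised 8 of the 28 genes and lowered 3, against 10.7% and 9.78% of all tested genes. The median log2 fold change was 0.12, against -0.01 over all tested genes, and it was 0.25 without paxillin siRNA vehicle replicate 1, 0.07 without paxillin siRNA vehicle replicate 3 and 0.23 without nonspecific siRNA vehicle replicate 3. NPC1 moved most. Its vehicle levels were 157, 178 and 228 CPM with paxillin siRNA, against 127, 117 and 112 CPM with nonspecific siRNA, which do not overlap, and it rose 1.58-fold (edgeR adjusted p = 0.000431). LSS rose 1.36-fold, with 114, 132 and 144 CPM under paxillin siRNA against 93.9, 85.6 and 106 CPM under nonspecific siRNA (edgeR adjusted p = 0.0012). MYLIP, called in neither DHT comparison, rose 1.32-fold, with 21.0, 22.3 and 21.0 CPM under paxillin siRNA against 16.5, 17.1 and 15.1 CPM under nonspecific siRNA (edgeR adjusted p = 0.00591).

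Among the falls, INSIG1 stood at 461, 530 and 588 CPM with paxillin siRNA, against 687, 698 and 744 CPM with nonspecific siRNA in vehicle. The groups did not overlap, and the log2 fold change was -0.43 ± 0.08 (SE; edgeR adjusted p = 0.00127). HSD17B7 was lower as well, with 64.8, 56.6 and 55.7 CPM under paxillin siRNA against 75.8, 81.2 and 84.2 CPM under nonspecific siRNA and a log2 fold change of -0.45 ± 0.09 (edgeR adjusted p = 0.00297). STARD4 fell by 0.39 ± 0.12 on the log2 scale (edgeR adjusted p = 0.0273), with overlapping groups. The other rises were MVD at 1.40-fold, CYP51A1 at 1.40-fold, DHCR7 at 1.33-fold, NSDHL at 1.26-fold and INSIG2 at 1.23-fold (edgeR adjusted p from 0.0103 to 0.0464). HMGCS1 and IDI1, which DHT raised most under paxillin siRNA, had log2 fold changes of 0.11 ± 0.17 and -0.04 ± 0.09 (edgeR adjusted p = 0.709 and 0.811). LSS, which DHT raised slightly more than IDI1 under nonspecific siRNA, is among the rises with paxillin siRNA given above.

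NPC1, LSS, MYLIP, INSIG1 and HSD17B7 kept their calls in all 18 alternative settings. Without nonspecific siRNA vehicle replicate 2 the counts were 3 up and 2 down, and without paxillin siRNA vehicle replicate 3 they were 3 up and 3 down. MVD, CYP51A1, NSDHL and DHCR7 lost their calls without either of these libraries (edgeR adjusted p from 0.0643 to 0.104). INSIG2 kept its call in 9 of 18 settings, being lost without any one of the nonspecific siRNA vehicle libraries, paxillin siRNA vehicle replicate 2 or 3, nonspecific siRNA DHT replicate 2 or 3 or paxillin siRNA DHT replicate 2, and with the compared groups alone (edgeR adjusted p from 0.0537 to 0.227). STARD4 kept its call in 14, being lost without nonspecific siRNA vehicle replicate 2 or 3 or paxillin siRNA vehicle replicate 1 or 2 (edgeR adjusted p from 0.0568 to 0.133). With the replicate number as a block the counts were 13 up and 3 down, against 14.8% and 13.5% of all genes, and MVK, FDFT1, SQLE, TM7SF2 and MSMO1 were added to the rises (edgeR adjusted p = 0.00727, 0.0196, 0.0348, 0.00247 and 0.021). Without the block TM7SF2 had a log2 fold change of 0.30 ± 0.11 (edgeR adjusted p = 0.0509), with no overlap between groups. TM7SF2 also passed with RLE and upper-quartile scaling (edgeR adjusted p = 0.0475 and 0.0473) and with DESeq2 (DESeq2 adjusted p = 0.0288). FDFT1, at 0.20 ± 0.08 without the block (edgeR adjusted p = 0.0722), passed with DESeq2 too (DESeq2 adjusted p = 0.0283).

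Under DHT, paxillin siRNA raised 1 of the 28 genes and lowered 1, against 6.34% and 7% of all tested genes. NSDHL rose 1.28-fold, with 84.3, 93.1 and 99.0 CPM under paxillin siRNA against 67.6, 71.8 and 77.1 CPM under nonspecific siRNA (edgeR adjusted p = 0.0141). SREBF2 fell by 0.28 ± 0.07 on the log2 scale, with 884, 789 and 819 CPM under paxillin siRNA against 1063, 972 and 985 CPM under nonspecific siRNA (edgeR adjusted p = 0.0205). The groups did not overlap in either gene. The NSDHL call was lost without nonspecific siRNA DHT replicate 1 or 2 or paxillin siRNA DHT replicate 3 (edgeR adjusted p = 0.0618, 0.0526 and 0.0779). The SREBF2 call was lost without nonspecific siRNA DHT replicate 1 or paxillin siRNA DHT replicate 2 or 3 (edgeR adjusted p = 0.0825, 0.0998 and 0.0643).

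The 5 genes with stable calls in vehicle had log2 fold changes nearer 0 here. They were picked by their calls in vehicle, which by itself favours smaller values here. The change in size was tested only by the interaction below. NPC1 had a log2 fold change of 0.26 ± 0.11, INSIG1 of -0.22 ± 0.08, HSD17B7 of -0.29 ± 0.10, MYLIP of 0.27 ± 0.09 and LSS of 0.19 ± 0.08 (SE; edgeR adjusted p = 0.124, 0.0809, 0.0533, 0.064 and 0.13). With the replicate block 8 genes rose and 4 fell, against 10.4% and 11.2% of all genes, and these 5 passed in the directions given (edgeR adjusted p = 0.0337, 0.00674, 0.0159, 0.0132 and 0.0337). The block also called MVD, TM7SF2, SC5D and DHCR7 up and STARD4 down (edgeR adjusted p = 0.000202, 0.00194, 0.0397, 0.0172 and 0.0409). CYP51A1, higher with paxillin siRNA in vehicle, averaged 22.9 ± 1.05 CPM with paxillin siRNA and 23.0 ± 0.54 CPM with nonspecific siRNA under DHT.

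**Figure D4:**
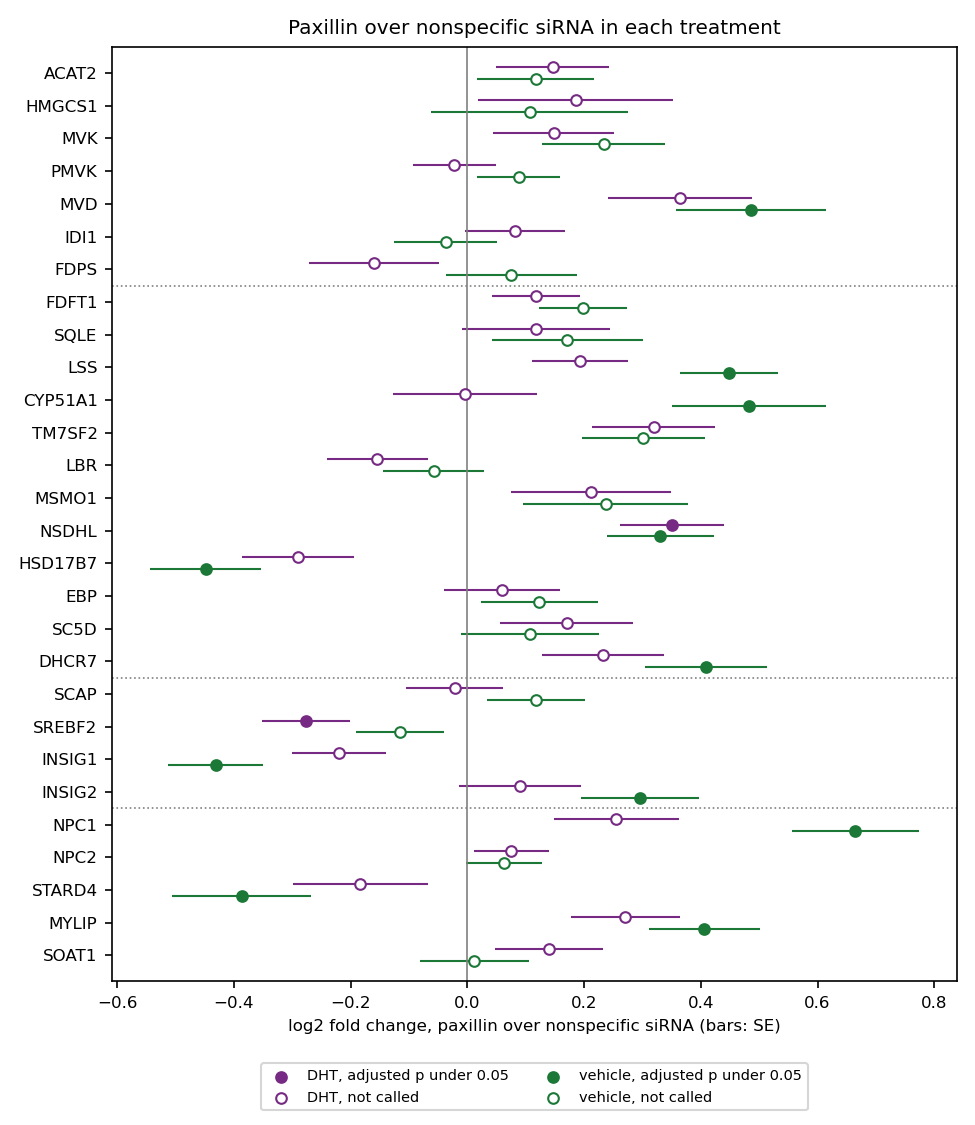
Log2 fold change of paxillin over nonspecific siRNA for each of the 28 genes in DHT (purple) and in vehicle (green), with bars of 1 SE and filled points where the edgeR adjusted p was under 0.05. In vehicle NPC1 lies farthest right at 0.66 and HSD17B7 farthest left at -0.45, and in DHT only NSDHL and SREBF2 are filled.

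Whether paxillin siRNA altered the DHT response itself was tested with the interaction term, the DHT log2 fold change under paxillin siRNA minus that under nonspecific siRNA. None of the 28 genes passed in edgeR (0 up and 0 down, against 0.0372% and 0.0124% of all genes). In DESeq2 and in the edgeR fit with the replicate block 0 passed as well. The share of all tested genes with an unadjusted edgeR p under 0.05 was not counted, and 3 of the 28 genes were under it. Those were CYP51A1 at -0.49 (95% interval -0.87 to -0.11), NPC1 at -0.41 (-0.73 to -0.09) and LSS at -0.25 (-0.50 to -0.01), with edgeR adjusted p-values of 0.447, 0.447 and 0.549. Without a filter on low counts NPC1 passed (edgeR adjusted p = 0.0159). For HMGCS1 the interval ran from -0.42 to 0.58 and for FDFT1 from -0.31 to 0.14.

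The spread between replicates was shared by much of the pathway. Of the 28 genes, 12 (42.9%) were highest in replicate 3 of all 4 groups, against 3.99% of all tested genes. These were ACAT2, HMGCS1, MVK, MVD, SQLE, MSMO1, NSDHL, EBP, SC5D, DHCR7, INSIG1 and STARD4. MSMO1 shows it in paxillin siRNA with DHT, with 134, 169 and 221 CPM in replicates 1, 2 and 3. SREBF2 and MYLIP were highest in replicate 3 of no group. The labels do not say what the replicate number marks, and its part in the siRNA differences was not tested beyond the block above.

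Of 29 further genes of sterol handling, 28 were in the table under the listed symbol and 26 were tested. With DHT 5 rose and 5 fell under paxillin siRNA, and 8 rose and 4 fell under nonspecific siRNA, and their median log2 fold changes were 0.01 and 0.11. The shares that rose and fell were 19.2% and 19.2% under paxillin siRNA, against 20.1% and 17.9% of all tested genes, and 30.8% and 15.4% under nonspecific siRNA, against 21.6% and 18.9%. OSBP, which exchanges sterols between endoplasmic reticulum and Golgi, rose 1.38-fold and 1.31-fold under paxillin and nonspecific siRNA. LIPA, the lysosomal acid lipase that frees cholesterol from its esters, rose 1.22-fold and 1.31-fold. ERLIN2, a membrane protein of sterol-regulated protein degradation, fell with log2 fold changes of -0.60 and -0.62. It had 137, 135 and 135 CPM with DHT, against 222, 186 and 210 CPM with vehicle under paxillin siRNA. GRAMD1C, a sterol transfer protein of the endoplasmic reticulum, fell with DHT with log2 fold changes of -1.67 and -1.01, and it was 2.33-fold higher with paxillin siRNA in vehicle (edgeR adjusted p = 0.000721). LPCAT3, a phospholipid-remodelling enzyme known as a target of liver X receptors, fell by 0.58 and 0.73 on the log2 scale with DHT. These pairs of values give paxillin siRNA before nonspecific siRNA. With paxillin siRNA 3 of the 26 rose and 2 fell in DHT (11.5% and 7.69%, against 6.34% and 7% of all tested genes), and 4 rose and 1 fell in vehicle (15.4% and 3.85%, against 10.7% and 9.78%).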

How the data were processed

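RNA-seq counts of 12 C4-2 libraries were used. Per the labels' protocols, the libraries were strand-specific TruSeq mRNA libraries. The authors deposited whole-number counts per gene symbol with unequal totals, taken here as raw counts. Their reads went through Trimmomatic 0.36, STAR 2.5.2b and featureCounts of Subread 1.5.0p3 with the build GRCh38, per the submitters' processing notes. Neither the annotation release nor the strand setting was given in the sources used here, so overlapping and antisense genes cannot be separated. Library totals of 11944906 to 32040465 counts and the spread between replicates both limit the precision.

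Genes were tested with edgeR 4.0.16 in R 4.3.3: filterByExpr (minimum count 10, minimum total 15), TMM scaling and a quasi-likelihood model of 4 group means over all 12 libraries, with Benjamini-Hochberg adjustment over 16115 genes and calls at 0.05. The fit was tested on simulated data. The alternatives comprised 2 other scalings (RLE and upper-quartile), no filter, DESeq2 1.42.0, a replicate block, the compared groups alone and leaving out each library. SE is derived from the F statistic, and 95% intervals from its degrees of freedom.

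The labels number the replicates alike in each group. Over 9283 genes, libraries of the same number deviated together from their group means, with correlations of 0.177 to 0.513 in 18 pairs (median 0.291). The 36 other pairs ran from -0.454 to 0.241 (median -0.138). Deviations within a group sum to 0, so positive values in the first pairs by themselves lower the others. The numbers may therefore pair the samples, which the labels do not state. The reported calls come from the fit without a block, and the replicate block was run as an alternative. Replicates of a group differed beyond sampling noise (chi-square per degree of freedom 6.04 to 17.9), and each was counted. Such a spread can also be technical, so it does not show that the replicates came from different cultures. Gene positions and exon lengths come from GENCODE 29, matched by symbol, and promoter sequences from RefSeq on GRCh38.p14. The rule allowed naming the 28 genes, PXN and FKBP5 as checks, and called genes of 2 neighbouring lists. The members and lists were chosen with earlier results of these data known.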

Additional observations from a re-analysis of the deposited data

How the results depend on the processing

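No call among the 28 genes changed direction under any of the 18 alternatives. With DHT, 17 of 21 calls under paxillin siRNA and 21 of 23 under nonspecific siRNA were kept in all 18, whereas 5 of 11 siRNA calls in vehicle and none of the 2 in DHT were. Outside the left-out libraries, 98 of 116 counts stayed within 1.5 times the reported one. For paxillin siRNA in vehicle, 13 of the 28 genes rose with the replicate block. For paxillin siRNA in DHT, up and down counts of the 28 genes were 8 and 4 with the replicate block and 6 and 3 without a filter. They were 3 and 2 with DESeq2, and 3 and 2 with the compared groups alone. Over all genes the counts were 1681 and 1805 with the replicate block. In the other settings just named, the counts over all genes stayed within 1.5 times the reported 1021 and 1128. For the interaction, 1 of the 28 genes fell without a filter, and up and down counts over all genes were 45 and 97 without a filter, 27 and 27 with DESeq2, and 42 and 55 with the replicate block. The cause was not tested. The replicate block changed no other call than those given beside the results.

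Leaving out 1 library at a time, 16 to 19 of the 28 genes rose and 1 to 4 fell with DHT under paxillin siRNA. With paxillin siRNA in DHT 0 to 4 rose and 0 to 3 fell, and in vehicle 3 to 11 rose and 2 to 3 fell. Over all genes, 484 to 1152 rose and 694 to 1319 fell with paxillin siRNA in DHT, 987 to 1902 rose and 861 to 1622 fell in vehicle, and 0 to 12 rose and 0 to 14 fell in the interaction. The lowest count of falls with DHT came without paxillin siRNA DHT replicate 1. With paxillin siRNA in DHT no gene was called without paxillin siRNA DHT replicate 3, none rose without nonspecific siRNA DHT replicate 1, none fell without paxillin siRNA DHT replicate 2, and 4 rose without paxillin siRNA DHT replicate 1 or vehicle replicate 3. Leaving out nonspecific siRNA vehicle replicate 1, the shallowest library, gave 8 up and 3 down in vehicle. With upper-quartile scaling the median of all genes under DHT was -0.09 and -0.08 under paxillin and nonspecific siRNA, against -0.01 in both as reported, and more genes then fell than rose in both, the opposite of the reported balance.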

Other observations

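Isoprenoid units also leave the mevalonate arm for prenyl groups, dolichol and ubiquinone. Of 14 genes of that branch, 4 rose and 2 fell with DHT under paxillin siRNA, and 4 rose and 1 fell under nonspecific siRNA. These are 28.6% and 14.3% under paxillin siRNA, against 20.1% and 17.9% of all tested genes, and 28.6% and 7.14% under nonspecific siRNA, against 21.6% and 18.9%. GGPS1, which makes geranylgeranyl diphosphate from the product of FDPS, rose 1.58-fold under paxillin siRNA and 1.41-fold under nonspecific siRNA. It stood at 71.4, 74.2 and 80.5 CPM with DHT, against 47.8, 48.4 and 46.9 CPM with vehicle under paxillin siRNA, and no library overlapped. NUS1, a subunit of the enzyme that makes dolichol precursors, rose 1.36-fold and 1.20-fold in the same order, whereas PDSS2, a subunit of the synthase of the ubiquinone side chain, fell by 0.37 and 0.29 on the log2 scale. The geranylgeranyl transferase subunits RABGGTA and RABGGTB rose 1.13-fold and 1.15-fold under paxillin siRNA and 1.19-fold and 1.22-fold under nonspecific siRNA. With paxillin siRNA in vehicle 1 of the 14 rose and 2 fell (7.14% and 14.3%, against 10.7% and 9.78% of all tested genes).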
